A study of Mus musculus with 10 samples.

Results

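Ephrins, Eph receptors, semaphorins, plexins, Slits and Robo receptors were followed in OP9 cells as a set of 57 genes out of the 26888 in the expression table. Members were taken by gene symbol alone, but the set was chosen with earlier results of these data known. They comprised 5 ephrin-A and 3 ephrin-B ligands, 9 EphA and 5 EphB receptors, 7 class 3 and 13 class 4 to 7 semaphorins, 9 plexins, 3 Slit ligands and the Robo receptors *Robo1*, *Robo2* and *Robo3*. *Robo4* was not analysed here.

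These proteins carry signals between cells that touch or lie close together. Ephrins sit on the cell surface, held by a lipid anchor (A class) or a transmembrane domain (B class), and bind Eph receptor tyrosine kinases on a neighbouring cell, with signals passing into both cells. Semaphorins act through plexins, joined by neuropilins for most secreted class 3 members, and secreted Slits act through Robo receptors. These families are known for guiding growing axons. They are also used by stromal, bone-forming and vascular cells to repel, sort or attach to their neighbours.

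OP9 is a stromal line from the calvaria of mice of strain (C57BL/6xC3H)F2-op/op, which lack functional M-CSF, and it supports the maturation of blood stem cells in culture. Transcriptomes were compared between 6 reaggregates, in which dispersed cells were packed together and kept for 48 h on 0.8-µm nitrocellulose filters where medium meets gas, and 4 flat cultures submersed in medium, to learn how reaggregation changes this supportive line. Reaggregates 2, 4 and 6 received IL-3, at a labelled dose of 200 µg/µl whose unit could not be checked, and reaggregates 1, 3 and 5 did not. The labels gave the de Bruijn laboratory as the source of flat cultures 2 and 4, flat cultures 1 and 3 carried no such label, and the source of the cells in reaggregates was not labelled; the methods mention 2 laboratories as sources of flat cells and differences in passage, but assign no library to a passage or experiment, so p-values measure the spread between these libraries, which may be technical.

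Expression is given as RPM, reads on a gene scaled to the same total in each library, and a library held an estimated 7.35 to 9.43 M reads on genes. At that depth 3 reads were worth 0.318 to 0.408 RPM, a floor that covers counting error alone. The line matched its stromal label: the summed RPM of 14 stromal markers lay between 17233 and 25723 in reaggregates and reached 6855, 9693, 13764 and 7068 in flat cultures 1 to 4, with the collagen gene *Col1a2* the most abundant at a mean of 7069 RPM. *Thy1* was the stromal marker at or below 0.5 RPM in every library. Of the endothelial markers 7 of 10 stayed at or below 0.5 RPM in every library, and their sum lay between 0.770 and 4.50 RPM, with *Flt1* the most abundant at 1.49 RPM. Among neural and glial markers 4 of 10, *Sox10* included, did not pass 0.5 RPM in any library, *Tubb3* was the most abundant at 30.6 RPM, and their sum lay between 15.4 and 127 RPM. Of the blood cell markers 5 of 8, including *Ptprc* and *Gata1* at 0, did not pass it, and *Cd34* was the most abundant at a mean of 26.1 RPM, with 0 in both de Bruijn flat cultures.

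Several libraries lay close together or apart in the members' values. Over the 46 members tested, the root-mean-square log2 difference was 0.267 to 0.339 between consecutive reaggregates (1 and 2, 3 and 4, 5 and 6) and 0.592 to 1.12 in the 12 other pairs of reaggregates. In flat cultures it was 0.544 and 1.13 within a source label and 1.68 to 1.80 across labels. Flat culture 3 was the flat library nearest to the mean of the reaggregates for 11 of the 13 members called below. Results of members are therefore also given against the flat cultures of each label, and with consecutive reaggregates averaged. Partner genes and marker lists are given with the 6 reaggregates as separate samples only.

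A gene was tested if it passed 0.5 RPM in at least 1 library, which left 46 of the 57 members. Of these, *Sema6a* and *Plxnc1* passed through reaggregates alone, and *Epha3*, *Epha5*, *Robo3* and *Slit1* through flat cultures alone. A call of up- or down-regulated needed a difference of 2-fold or more on the log2(RPM + 0.5) scale, which understates changes of low genes, and an adjusted p of at most 0.05. Reaggregates had 12 up-regulated members, where 7.32% of the 16933 genes tested were up-regulated, and 1 down-regulated member, where 6.53% of genes were. At any fold, 14 members were higher and 1 was lower past the same adjusted p. Of the 16933 genes tested, 2299 were higher and 2665 lower by that measure, 29.3% in either direction. All reaggregates lay above all flat cultures for 7 members, against 7.8% of genes, and below them for 1, against 11.4%. The median log2 fold change was 0.28 over the 46 members and 0.04 over all genes tested. With consecutive reaggregates averaged, as 3 samples, 1 member stayed up-regulated (*Sema6a*) and 1 down-regulated (*Efnb2*), while 312 and 429 of all genes were. The call of *Sema6a* carries little weight, as this gene passed the filter through reaggregates alone. The 11 other called members had an adjusted p of 0.0514 to 0.151 after averaging and were not called. Their fold changes could not differ, since averaging pairs of equal size leaves the group mean as it was. Without flat culture 4 the count of up-regulated members was 7, and without flat culture 1 or 3 the count of down-regulated members was 4 or 3. *Epha2* and *Epha5* joined *Efnb2* in both cases, and *Sema3e* without flat culture 1. As *Epha5* passed the filter through flat cultures alone, the filter itself favoured its call. Counts of all genes moved as well with 1 library left out, and their ranges are given in the closing section. In bulk RNA, fewer cells that express a gene and less RNA per cell cannot be told apart.

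The 2 flat sources gave different numbers of calls. Against the de Bruijn flat cultures alone, 15 of 45 members were up-regulated, beside 15.5% of genes, and 9 were down-regulated, beside 10.6%. Of those called, *Sema3g*, *Sema6a*, *Sema6d*, *Slit2* and *Plxnb3* passed the filter through reaggregates alone, and *Epha5* through the de Bruijn flat cultures alone. The filter itself favoured those calls. Against the flat cultures without that label, 8 of 44 members were up-regulated, beside 3.97% of genes, and 1 was down-regulated, beside 6.49%. *Plxna2* and *Sema6c* were up-regulated in the latter alone. The 7 members called in the same direction against each source on its own were *Ephb3*, *Sema3b*, *Sema3g*, *Sema5a*, *Sema6a* and *Plxnb1*, which rose, and *Efnb2*, which fell. Of these, *Sema6a* passed the filter through reaggregates alone in both comparisons, and *Sema3g* did so against the de Bruijn cultures. Both comparisons used the same 6 reaggregates, so they were not independent, and the share of all genes called in both was not counted.

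**Figure D1:**
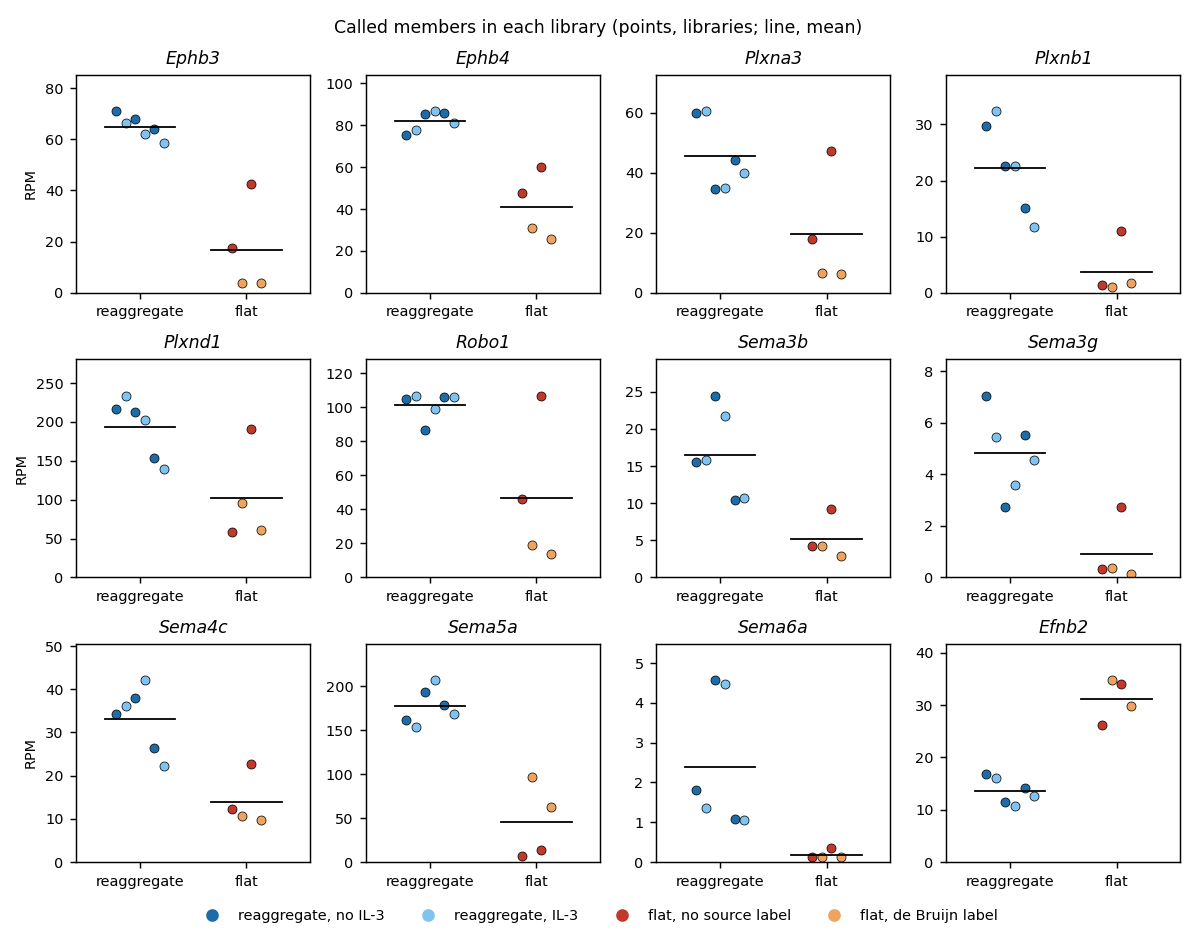
RPM (vertical axes, from 0) of the 12 called members at or above 2 RPM in each of 6 reaggregates and 4 flat cultures, with points coloured by IL-3 or source label and lines at group means. *Ephb3* lies between 58.6 and 71.1 RPM in reaggregates and at or below 42.4 RPM in flat cultures, and *Efnb2* is the member that is lower in reaggregates.

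Among the ligands of Eph receptors, the ephrin that fell was *Efnb2*, a transmembrane ligand best known as a marker of arteries that binds EphB4. Reaggregates 1 to 6 held 16.9, 16.1, 11.4, 10.8, 14.1 and 12.6 RPM of *Efnb2*, and flat cultures 1 to 4 held 26.2, 34.8, 34.0 and 29.9 RPM. Every reaggregate lay below every flat culture, and the flat cultures of both source labels were alike. The mean was 31.2 ± 3.98 RPM in flat cultures (SD, n = 4) and fell to 13.7 ± 2.49 RPM in reaggregates (SD, n = 6), with a log2 fold change of −1.17 (SE 0.18, adjusted p = 0.00101), with −1.23 against the de Bruijn flat cultures and −1.12 against the others. Of the other B-class ligands, *Efnb1* was the most abundant ephrin per length, at 15.8 ± 1.49 RPM per kb of exon in reaggregates (SD, n = 6) and 19.4 ± 6.76 in flat cultures (SD, n = 4). Its log2 fold change of −0.23 had a 95% interval of −0.68 to 0.22, narrower than a fold of 2 in either direction. *Efnb3* lay between 0.212 and 2.86 RPM in reaggregates and between 0 and 2.87 RPM in flat cultures.

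Of the 5 lipid-anchored ephrin-A ligands none was called at a fold of 2. *Efna4* led them per length, at 9.02 ± 1.38 RPM per kb in reaggregates and 5.84 ± 1.21 in flat cultures. Its RPM was 15.8, 12.9, 16.2, 13.4, 16.9 and 11.3 in reaggregates and 7.37, 7.99, 11.1 and 10.9 in flat cultures, so that the groups did not overlap. The log2 fold change of *Efna4* was 0.61 (SE 0.19, adjusted p = 0.0340), past the adjusted p but short of the fold. With consecutive reaggregates averaged the adjusted p was 0.172, and it was above 0.05 without any of reaggregates 1 to 5 or flat cultures 1 and 2, each left out in turn. *Efna1* ranged from 3.35 to 7.51 RPM and *Efna3* from 4.10 to 9.33 RPM over the 10 libraries. These 3 genes lie side by side on chromosome 3 (NCBI37, *Efna1* at 89075655-89085064, *Efna3* at 89117821-89126887 and *Efna4* at 89137312-89141950). In the annotation *Efna3* and *Efna4* share 14.1% and 10.5% of their exon bases with a gene on the opposite strand, and libraries whose strand handling is not given cannot separate such reads. *Efna5* and *Efna2* differed between flat sources and are described with them.

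Among Eph receptors, 2 of the 4 EphB kinases tested rose, beside 7.32% of all genes. In order of library number, *Ephb3* was at 71.1, 66.2, 68.0, 62.0, 63.9 and 58.6 RPM in reaggregates, against 17.4, 3.70, 42.4 and 3.64 RPM in flat cultures. The reaggregates were all higher and close to each other, whereas the flat cultures spread from the de Bruijn pair at the bottom to flat culture 3. The mean was 16.8 ± 18.3 RPM in flat cultures (SD, n = 4) and rose to 65 ± 4.45 RPM in reaggregates (SD, n = 6), with a log2 fold change of 2.60 (SE 0.56, adjusted p = 0.00651), with 3.97 against the de Bruijn flat cultures and 1.24 against the others. The call of *Ephb3* was lost with consecutive reaggregates averaged (adjusted p = 0.0839).

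*Ephb4*, the main receptor of ephrin-B2 and a marker of veins, was the leading EphB receptor per length. Its RPM was 75.3, 77.6, 85.3, 86.9, 86.0 and 80.9 in reaggregates and 47.9, 30.9, 59.9 and 25.5 in flat cultures. The groups did not overlap, and flat culture 3 was again the closest to the reaggregates. *Ephb4* rose by a log2 fold change of 1.07 (SE 0.21, adjusted p = 0.00462), just past the fold of 2. Against the flat cultures without the de Bruijn label the change was 0.61 and not called, and leaving out flat culture 2 or 4 also ended the call. Averaging consecutive reaggregates ended the call too (adjusted p = 0.0761). Per kb of exon, *Ephb4* was 4.6 to 8.31 times as abundant as *Efnb2* in reaggregates and 0.880 to 1.89 times in flat cultures, a comparison chosen after both genes' values were seen and not tested. *Ephb2* (12.6 to 22.7 RPM in reaggregates, 7.17 to 14.8 RPM in flat cultures) and *Ephb6*, whose kinase domain is inactive (2.61 to 7.87 RPM over all libraries), were not called, and *Ephb1* was not tested.

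No EphA receptor was called against all flat cultures. Against the de Bruijn flat cultures 3 of 6 were down-regulated, beside 10.6% of genes, and against the others 0 of 4 were. The 3 were *Epha2*, *Epha4* (log2 fold change −2.35, adjusted p = 0.0241) and *Epha5* (−1.49, adjusted p = 0.000647). *Epha5* passed the filter through flat cultures alone. *Epha2*, a receptor of ephrin-A ligands found in many epithelial and stromal cells, made up 77.1% of the summed EphA level per kb in reaggregates and 90.3% in flat cultures. Reaggregates held 25.9, 25.2, 19.8, 16.6, 50.8 and 45.0 RPM of *Epha2*, and flat cultures held 30.8, 205, 37.1 and 171 RPM. The high values were those of the de Bruijn cultures, and the flat cultures without that label lay among the reaggregates. The log2 fold change was −1.49 (SE 0.55, adjusted p = 0.0602) against all flat cultures, −2.71 and called against the de Bruijn cultures, and −0.26 against the others; leaving out flat culture 1 or 3 also brought a call. *Epha1* lay between 0.691 and 4.68 RPM and *Epha7* between 0.243 and 3.68 RPM. *Epha3* and *Epha5* reached at most 0.596 and 1.5 RPM, in de Bruijn flat cultures.

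**Figure D2:**
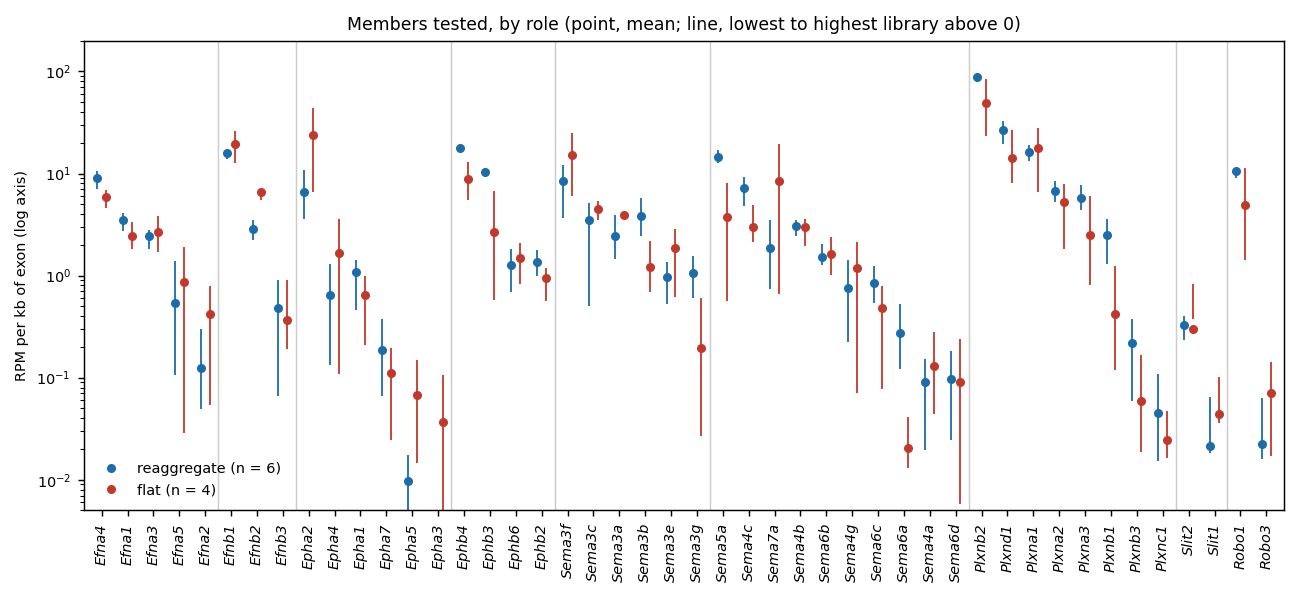
Level of the 46 tested members in RPM per kb of exon (log axis), ordered by role and then by mean level, with points at the means of 6 reaggregates and 4 flat cultures and lines from the lowest to the highest library above 0. *Plxnb2* is the most abundant member, at means of 89.0 and 49.6 RPM per kb, and *Slit2*, at 0 in 2 flat cultures, has a flat mean below its line.

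Of the 6 secreted class 3 semaphorins tested, 2 rose and none fell, beside 7.32% and 6.53% of all genes. *Sema3b*, a class 3 ligand that binds neuropilins, held 15.5, 15.8, 24.5, 21.8, 10.4 and 10.7 RPM in reaggregates and 4.26, 4.29, 9.22 and 2.92 RPM in flat cultures. Every reaggregate was higher than every flat culture, with the lowest reaggregates near flat culture 3. *Sema3b* rose by a log2 fold change of 1.62 (SE 0.33, adjusted p = 0.00498), by 2.0 against the de Bruijn flat cultures and by 1.25 against the others. *Sema3g*, a class 3 ligand known from blood vessels, held 7.06, 5.45, 2.72, 3.59, 5.53 and 4.57 RPM in reaggregates and 0.345, 0.358, 2.75 and 0.121 RPM in flat cultures. Flat culture 3 was as high as the lowest reaggregate, while the other flat cultures were near the floor of 3 reads. *Sema3g* rose by a log2 fold change of 2.22 (SE 0.43, adjusted p = 0.00401), with 2.81 and 1.63 against the de Bruijn and the other flat cultures. Neither call held with consecutive reaggregates averaged (adjusted p = 0.0639 for *Sema3b* and 0.0612 for *Sema3g*).

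The most abundant class 3 semaphorin per length was *Sema3f*, which acts through neuropilin-2, at 8.39 ± 3.44 RPM per kb in reaggregates and 15.0 ± 8.11 in flat cultures. Its RPM was 35.4, 35.8, 15.7, 12.8, 42.0 and 33.7 in reaggregates and 21.1, 86.5, 39.8 and 62.1 in flat cultures. It was high in the de Bruijn cultures and low in reaggregates 3 and 4, and was not called (log2 fold change −0.78, adjusted p = 0.181). Against the de Bruijn cultures alone it was down-regulated (−1.44, adjusted p = 0.0218), and against the others the change was −0.12 and not called. *Sema3f* and *Sema3b* are neighbours on chromosome 9 (NCBI37, 107583833-107612806 and 107500005-107511560). *Sema3c* lay between 33.9 and 36.8 RPM in reaggregates 1, 2, 5 and 6 but at 3.61 and 3.59 RPM in reaggregates 3 and 4, beside 24.9 to 38.7 RPM in flat cultures. *Sema3a*, whose protein repels axons and has been tied to bone formation, ran the other way among reaggregates, at 37.0 and 39.4 RPM in reaggregates 3 and 4 and between 14.6 and 21.8 RPM in the rest, beside 36.7 to 42.4 RPM in flat cultures. *Sema3a* was not called (log2 fold change −0.76, adjusted p = 0.0569), but was down-regulated when reaggregates 3 and 4 were both left out. *Sema3e*, the ligand of plexin-D1, lay between 4.01 and 10.3 RPM in reaggregates and between 4.72 and 21.6 RPM in flat cultures. It was down-regulated against the de Bruijn cultures (log2 fold change −1.30, adjusted p = 0.0112) and not called against the others (−0.27). *Sema3d* was not tested. It lies on chromosome 5 with *Sema3a*, *Sema3e* and *Sema3c*, all between 12383166 and 17236086 in NCBI37.

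The most abundant membrane-bound semaphorin per length in reaggregates was *Sema5a*, at 14.7 RPM per kb, whose extracellular part carries thrombospondin repeats. Reaggregates held 162, 154, 193, 207, 179 and 168 RPM of *Sema5a*, and flat cultures held 6.79, 97.3, 13.7 and 62.2 RPM. All reaggregates were higher, and here the de Bruijn flat cultures were the nearer ones. The mean was 45.0 ± 42.7 RPM in flat cultures (SD, n = 4) and rose to 177 ± 20 RPM in reaggregates (SD, n = 6), with a log2 fold change of 2.65 (SE 0.59, adjusted p = 0.00784), with 1.17 against the de Bruijn flat cultures and 4.12 against the others. The call of *Sema5a* was lost with consecutive reaggregates averaged (adjusted p = 0.0913). In the flat cultures *Sema5a* differed between sources by 2.94 (adjusted p = 0.00251), higher in the de Bruijn pair.

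*Sema4c*, a transmembrane ligand of plexin-B2, held 34.2, 36.1, 37.9, 42.1, 26.4 and 22.2 RPM in reaggregates and 12.2, 10.6, 22.6 and 9.72 RPM in flat cultures. Flat culture 3 overlapped with the lowest reaggregate. *Sema4c* rose by a log2 fold change of 1.28 (SE 0.26, adjusted p = 0.00471), and the change of 0.94 against the flat cultures without the de Bruijn label was not called. With consecutive reaggregates averaged *Sema4c* was not called (adjusted p = 0.0652). *Sema6a*, a transmembrane ligand of plexin-A2 and plexin-A4, held 1.80, 1.36, 4.57, 4.48, 1.08 and 1.06 RPM in reaggregates and 0.115, 0.119, 0.359 and 0.121 RPM in flat cultures. All flat cultures were at or below the level of 3 reads, and reaggregates 3 and 4 stood above the rest. On the log2(RPM + 0.5) scale *Sema6a* rose by 1.92 (SE 0.38, adjusted p = 0.00439), by 2.03 and 1.80 against the de Bruijn and the other flat cultures. The filter favours the call of a gene that enters the test through its high group alone. The fold change of *Sema6a* also followed the added constant, at 2.98 with 0.1 RPM and 1.39 with 1 RPM, so its call carries little weight. The other tested members of classes 4 to 7 were not called: *Sema4b* lay between 10.7 and 19.4 RPM, *Sema6b* between 4.03 and 9.54 RPM, *Sema6c* between 0.460 and 7.30 RPM and *Sema4a* between 0.106 and 1.5 RPM over all libraries, and *Sema4g*, *Sema6d* and *Sema7a* differed between flat sources. *Sema4d*, the ligand of plexin-B1, was 0 in 9 libraries and 3.86e-06 RPM in flat culture 1.

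Plexins, the receptors of semaphorins, were the most abundant family, with a summed level of 148 ± 12.6 RPM per kb in reaggregates (SD, n = 6) and 89.8 ± 36.3 in flat cultures (SD, n = 4). Of the 8 tested, 4 rose and none fell, beside 7.32% and 6.53% of all genes. *Plxnb1*, known as the receptor of Sema4D, held 29.7, 32.4, 22.5, 22.5, 15.1 and 11.7 RPM in reaggregates and 1.38, 1.07, 11.0 and 1.70 RPM in flat cultures. Reaggregates were all higher, though reaggregate 6 was close to flat culture 3. The mean was 3.79 ± 4.82 RPM in flat cultures (SD, n = 4) and rose to 22.3 ± 8.01 RPM in reaggregates (SD, n = 6), with a log2 fold change of 2.87 (SE 0.51, adjusted p = 0.00277), with 3.54 against the de Bruijn flat cultures and 2.21 against the others. With consecutive reaggregates averaged *Plxnb1* was just short of a call (adjusted p = 0.0514).

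*Plxna3*, an X-linked receptor that works with neuropilins, held 59.9, 60.6, 34.7, 35, 44.1 and 39.8 RPM in reaggregates and 18.0, 6.68, 47.2 and 6.32 RPM in flat cultures. Flat culture 3 lay within the range of the reaggregates and the de Bruijn pair lowest. *Plxna3* rose by a log2 fold change of 1.64 (SE 0.48, adjusted p = 0.0246), with 2.68 against the de Bruijn flat cultures and 0.60, not called, against the others. *Plxnd1*, the receptor of Sema3E and known from vessel patterning, held 217, 234, 213, 203, 153 and 140 RPM in reaggregates and 58.1, 96.3, 191 and 61.5 RPM in flat cultures. Flat culture 3 was again within the reaggregate range. *Plxnd1* rose by a log2 fold change of 1.07 (SE 0.31, adjusted p = 0.0229), and the 0.85 against the flat cultures without the de Bruijn label was not called. Leaving out flat culture 2 or 4, or reaggregate 1 or 2, ended the call of *Plxna3*, and leaving out reaggregate 2 or flat culture 1 or 4 ended that of *Plxnd1*. Both calls were also lost with consecutive reaggregates averaged (adjusted p = 0.151 for *Plxna3* and 0.143 for *Plxnd1*). *Plxnb3*, a receptor of Sema5A, was called while below 2 RPM in the mean, with 0.384 to 2.45 RPM in reaggregates and 0 to 1.08 RPM in flat cultures; that call (log2 fold change 1.15, adjusted p = 0.0438) was lost under 17 of 26 alternative settings.

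The most abundant member of the whole set was *Plxnb2*, receptor of Sema4C and of angiogenin, at 89.0 ± 6.67 RPM per kb in reaggregates and 49.6 ± 25.5 in flat cultures. Its RPM was 685, 679, 581, 612, 710 and 642 in reaggregates and 351, 314, 617 and 169 in flat cultures. It fell just short of a fold of 2 (log2 fold change 0.99, SE 0.28, adjusted p = 0.0221) and was called without reaggregate 3 or 4 or without flat culture 1 or 3. Against the de Bruijn flat cultures the change was 1.49 and called, and against the others it was 0.48 and not called (adjusted p = 0.132). Its adjusted p was above 0.05 in 10 of 26 alternatives, among them without flat culture 4 (0.0507) and with consecutive reaggregates averaged (0.152). *Plxna1* (120 to 171 RPM in reaggregates, 59.0 to 251 RPM in flat cultures) and *Plxna2* (79.5 to 127 and 27.4 to 118 RPM) overlapped between groups. In the annotation *Plxna1* shares 10.7% of its exon bases with a gene on the opposite strand, so the limit given for *Efna4* applies. *Plxnc1*, the receptor of Sema7A, did not pass 0.768 RPM in any library, and *Plxna4* was not tested.

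*Robo1*, a receptor for Slits, made up 99.8% of the summed Robo level per kb in reaggregates and 98.5% in flat cultures. Reaggregates held 105, 107, 86.8, 99.1, 106 and 106 RPM of *Robo1*, and flat cultures held 46.2, 19.2, 107 and 13.6 RPM. Flat culture 3 matched the highest reaggregates, and the de Bruijn cultures were lowest. *Robo1* rose by a log2 fold change of 1.57 (SE 0.45, adjusted p = 0.0229) against all flat cultures and by 2.61 against the de Bruijn pair, but the 0.52 against the others was not called, and the call also ended without flat culture 2 or 4. *Robo1* was not called with consecutive reaggregates averaged (adjusted p = 0.151). Its ligand gene *Slit2* was far less abundant per length, at 0.325 ± 0.0723 RPM per kb in reaggregates beside 10.6 ± 0.818 for *Robo1* (SD, n = 6). *Slit2* held 6.03, 6.13, 4.57, 5.27, 3.91 and 3.51 RPM in reaggregates and 5.64, 0, 12.4 and 0 RPM in flat cultures. It was not called against all flat cultures (adjusted p = 0.232) but was called, as higher, without flat culture 3. *Slit1* and *Robo3* did not exceed 0.599 and 0.958 RPM.

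The 11 members not tested were *Epha6*, *Epha8*, *Epha10*, *Ephb1*, *Robo2*, *Slit3*, *Sema3d*, *Sema4d*, *Sema4f*, *Sema5b* and *Plxna4*, of which the highest value in any library was 0.359 RPM. At this depth their presence at a lower level was not detectable.

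Flat cultures differed from each other by source label in 12 of 44 members tested. Of these 7 were higher in the de Bruijn cultures, where 2.89% of the 16115 genes tested were, and 5 were lower, where 6.96% were. *Efna2* passed the filter through the de Bruijn cultures alone, and *Slit2* and *Sema6d* through flat cultures 1 and 3 alone. The filter itself favoured those calls. Without a filter on low values, 2 of 55 members (*Epha2* and *Sema7a*) and 247 genes were called. *Sema7a*, a lipid-anchored semaphorin that acts through integrins and plexin-C1, held 41.3 and 64.5 RPM in de Bruijn flat cultures 2 and 4, 2.19 and 2.63 RPM in flat cultures 1 and 3, and 2.44 to 11.5 RPM in reaggregates, a log2 difference of 4.17 between sources (SE 0.39, adjusted p = 0.000251). *Epha2* differed by 2.45 (adjusted p = 0.00159). *Epha4*, which binds ephrins of both classes, held 22.7 and 13.4 RPM in the de Bruijn pair and 0.691 and 5.63 RPM in the other, and *Sema4g* held 9.31 and 10.4 RPM beside 0.345 and 2.87 RPM. The ephrin-A ligands *Efna5* and *Efna2* were higher in the de Bruijn pair too, at 7.75 and 5.59 RPM beside 0.115 and 0.599 RPM for *Efna5*, and at 1.55 and 1.70 RPM beside 0.115 and 0.240 RPM for *Efna2*. The annotation holds 2 overlapping models named *Efna5*, which share 59.9% of the exon bases of the one measured, so its level may be split between them.

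Lower in the de Bruijn cultures were *Ephb3*, *Robo1*, *Plxna3*, *Slit2* and *Sema6d*. Of these, *Slit2* and *Sema6d* passed the filter through flat cultures 1 and 3 alone, which favoured their calls. *Slit2*, at 0 in both de Bruijn libraries, was at least 24.8-fold higher in the mean of flat cultures 1 and 3 and at least 13.5-fold higher in the mean of the reaggregates, computed against 3 reads per library (0.363 RPM). *Sema6d*, a ligand of plexin-A1, held 0.119 and 0.0607 RPM in the de Bruijn pair and 1.15 and 2.51 RPM in the other. With 2 libraries a side these calls rested on few values. Leaving out 1 flat culture leaves a side of 1 library with no spread of its own, and calls then numbered 0 of members and 0 of all genes without flat culture 1 or 3, and 6 members and 540 or 603 genes without flat culture 2 or 4, beside 1587 genes with all. Several marker lists moved with the source label. Those of adipocytes had summed RPM of 1388 and 1460 for the de Bruijn cultures, 369.6 and 528 for the other flat cultures and from 255 up to 691 among reaggregates. Of these markers 5 of 6 tested were higher in the de Bruijn cultures, *Lpl* was the most abundant at 321 RPM, and *Cfd* and *Retn* were at or below 0.5 RPM in every library. In flat cultures 1 to 4, proliferation markers summed to 1880, 714.5, 1593 and 839 RPM, with 4 of 11 called lower in the de Bruijn cultures, neural and glial markers to 127, 16.0, 90.8 and 15.4 RPM, with 1 of 4, and blood cell markers to 73.4, 1.39, 27.8 and 1.89 RPM, with 1 of 3. The part of these lists in the members' differences was not tested.

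**Figure D3:**
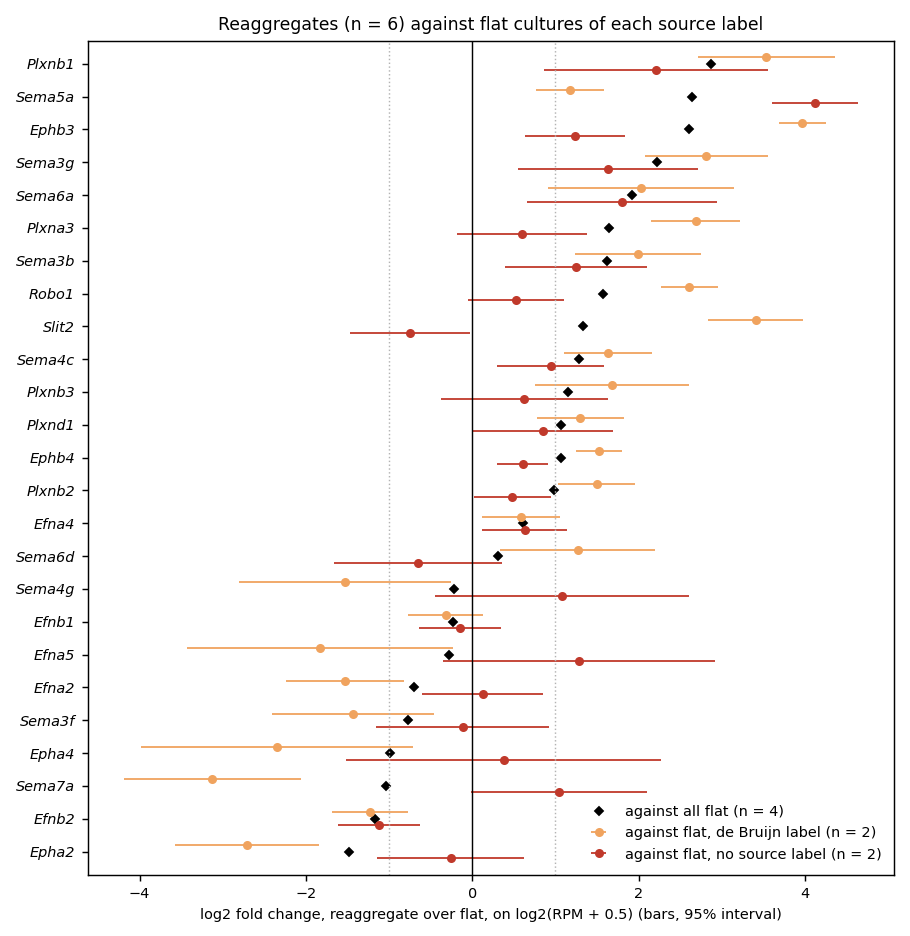
Log2 fold change of reaggregates over flat cultures, with 95% intervals, against the 2 de Bruijn flat cultures and the 2 flat cultures without that label, for 25 named members, with diamonds for all 4 flat cultures and dotted lines at a fold of 2. *Efnb2* lies at −1.23 and −1.12, whereas *Sema7a* lies at −3.12 and 1.04; the orange point of *Slit2* rests on flat values of 0.

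With IL-3, a cytokine of early blood cells, 0 of 42 members were called within the reaggregates, as were 0 of the 16292 genes tested (0%). At an unadjusted p of at most 0.05, limma counted 0 members and 20 genes. The widest difference was that of *Sema3e*, at 10.3, 7.68 and 8.92 RPM in reaggregates 2, 4 and 6 and 8.21, 5.01 and 4.01 RPM in reaggregates 1, 3 and 5, a log2 difference of 0.65 with a 95% interval of −0.04 to 1.33. *Sema3e* was higher with IL-3 in each consecutive pair, and with those pairs as a block its interval was 0.32 to 0.98 (unadjusted p = 0.000376, adjusted p = 0.292). With consecutive reaggregates as a block, again 0 members were called, 4 members (*Efna4*, *Plxna2*, *Sema3e* and *Sema3f*) and 692 genes had such a p, and 3 genes were called.

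Genes that work with these receptors were described from lists of known partners, chosen, like the marker lists, with earlier results of these data known. These partners, like the marker lists below, were called with the 6 reaggregates as separate samples. Averaging consecutive reaggregates gave 312 genes up- and 429 down-regulated, beside 1239 and 1106, so some of these calls may not hold. Of 30 tested semaphorin co-receptors and effectors, 1 was up-regulated and 2 down-regulated, with a median log2 fold change of 0.07 beside 0.04 over all genes. These counts are close to or below the shares of all genes called, 7.32% up and 6.53% down, which also apply to the lists that follow. The fallen genes were GTPases: *Rnd1*, which binds plexins, was 1.36 to 2.60 RPM in reaggregates and 10.4 to 25.5 RPM in flat cultures (log2 fold change −2.81, adjusted p = 0.000113), and *Rras2*, of the R-Ras family that plexins inactivate, was 23.8 to 39.5 RPM and 78.0 to 196 RPM (−2.32, adjusted p = 0.000223). *Crmp1*, which acts downstream of Sema3A, rose (2.48, adjusted p = 0.0322), with 28.9 and 30.5 RPM in reaggregates 3 and 4, 3.08 to 5.42 RPM in the rest and 0.121 to 3.58 RPM in flat cultures. The neuropilins that carry class 3 signals were not called; *Nrp1* held 147 to 160 RPM in reaggregates and 65.1 to 125 RPM in flat cultures, and *Nrp2* held 35.4 and 36.6 RPM in reaggregates 3 and 4, 140 to 152 RPM in the others and 71.8, 1.19, 91.2 and 1.34 RPM in flat cultures. Both neuropilins were singled out after their values were seen.

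Of 22 tested Eph and ephrin effectors, 5 rose and 1 fell, beside 7.32% and 6.53% of all genes, with a median of 0.37. Among them were the exchange factors *Vav3* (log2 fold change 3.40, adjusted p = 0.0126) and *Kalrn* (2.51, adjusted p = 0.00706), the adaptor *Nck2* (1.87, adjusted p = 0.00155) and the kinase *Abl1* (1.07, adjusted p = 0.00932). *Vav3* lay between 9.87 and 32.3 RPM in reaggregates and at 8.91 and 6.74 RPM in flat cultures 1 and 3, and it was listed at 2.19e-05 and 1.99e-05 RPM in the de Bruijn cultures. *Nck2* lay between 125 and 187 RPM in reaggregates and between 24.4 and 80.2 RPM in flat cultures. Of 13 tested Slit-Robo effectors, 3 rose and 1 fell, with a median of 0.33. *Dag1*, which encodes the Slit-binding dystroglycan, was 259 to 285 RPM in reaggregates and 69.8 to 192 RPM in flat cultures (1.19, adjusted p = 0.00534), and *Pak1*, a kinase activated by Rac and Cdc42, was 40.7 to 78.5 RPM and 121 to 158 RPM (−1.24, adjusted p = 0.00160). *Evl*, an actin regulator (2.73, adjusted p = 0.0204), and *Srgap3*, which binds Robo1 (1.05, adjusted p = 0.0120), also rose. Of 9 tested netrin and RGM genes, 2 rose and none fell, with a median of 0.94: the netrin receptor *Unc5c* (2.40, adjusted p = 0.0365) and the ligand *Ntn1* (1.03, adjusted p = 0.0159). None of 3 FLRT genes, whose proteins bind Unc5 receptors, was called, and their median was 0.09. Against the flat cultures without the de Bruijn label the calls of *Crmp1*, *Vav3*, *Abl1*, *Evl*, *Srgap3*, *Unc5c* and *Ntn1* did not remain.

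Marker lists moved alongside the members. Of 13 stromal markers tested 8 rose and *Kitl* fell, with a median of 1.58. Of 11 proliferation markers all fell, with a median of −2.15, and their summed RPM was 268 to 387 among reaggregates but 1880, 714.5, 1593 and 839 for flat cultures 1 to 4, *Top2a* being the most abundant at 167 RPM. Of 7 adipocyte markers tested, 3 fell, and none of 3 endothelial, 6 neural and glial or 3 blood cell markers tested was called. Against the de Bruijn flat cultures 5 of 7 adipocyte markers fell, and against the others 0 of 5, beside 10.6% and 6.49% of all genes. Of neural and glial markers, 2 of 6 rose against the de Bruijn cultures, beside 15.5% of genes, and 1 of 6 fell against the others. Of blood cell markers, 1 of 3 rose against the de Bruijn cultures. Whether any of these lists has a part in the members' changes was not tested.

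Promoters are shown for 4 of the up-regulated members whose groups did not overlap, *Ephb3*, *Ephb4*, *Plxnb1* and *Sema5a*, and for *Efnb2*, which moved the other way. RefSeq promoter entries (GRCm38.p6, a later build than that of the expression values) were found for 50 of the 57 members, as 66 entries among 32851, and the 250 bases before each start were searched on both strands. The GC box GGGCGG, bound by SP and KLF factors, was present in 47 of the 66 member entries and in 32.7% of all entries; the median GC content was 64% in member entries and 52.4% in all. The TEAD motif GGAATG was in 7 member entries and 12.6% of all, the AP-1 motif TGANTCA in 3 and 6.75%, the RBPJ motif GTGGGAA in 3 and 5.42%, and the E-box CACGTG, a form of the wider E-box CANNTG, in 4 and 6.02%, while CANNTG was in 34 and 66.2%. Among the sequences printed, *Ephb3* held 2 GC boxes, *Ephb4* 4, *Plxnb1* 4, *Sema5a* 5, of which 2 share a base, and *Efnb2* 3, and the TEAD motif occurred once in *Plxnb1* and once in *Efnb2*. A match describes letters and does not show a bound site. Each sequence is given 5′ to 3′ on the strand of its gene, with capitals for GGGCGG and GGAATG on either strand.
*Ephb3*, chr16:21204545-21204794, plus strand: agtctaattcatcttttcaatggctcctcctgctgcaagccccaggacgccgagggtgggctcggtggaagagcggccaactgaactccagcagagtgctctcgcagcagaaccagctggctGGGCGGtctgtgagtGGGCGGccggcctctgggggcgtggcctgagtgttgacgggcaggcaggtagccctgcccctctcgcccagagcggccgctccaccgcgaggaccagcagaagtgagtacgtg
*Ephb4*, chr5:137349859-137350108, plus strand: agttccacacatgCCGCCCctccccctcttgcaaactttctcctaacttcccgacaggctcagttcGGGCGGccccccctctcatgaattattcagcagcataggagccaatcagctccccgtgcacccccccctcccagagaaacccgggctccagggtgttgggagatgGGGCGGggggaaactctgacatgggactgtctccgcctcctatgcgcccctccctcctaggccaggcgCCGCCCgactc
*Plxnb1*, chr9:109095186-109095435, plus strand: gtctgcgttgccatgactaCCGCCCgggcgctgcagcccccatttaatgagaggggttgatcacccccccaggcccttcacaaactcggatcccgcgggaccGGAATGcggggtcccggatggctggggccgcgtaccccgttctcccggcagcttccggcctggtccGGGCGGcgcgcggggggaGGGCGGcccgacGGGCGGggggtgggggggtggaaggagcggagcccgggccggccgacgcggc
*Sema5a*, chr15:32244563-32244812, plus strand: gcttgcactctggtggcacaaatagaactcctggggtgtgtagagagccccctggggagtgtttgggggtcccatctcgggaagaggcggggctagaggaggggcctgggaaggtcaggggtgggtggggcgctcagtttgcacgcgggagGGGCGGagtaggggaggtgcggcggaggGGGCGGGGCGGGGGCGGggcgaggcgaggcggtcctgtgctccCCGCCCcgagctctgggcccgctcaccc
*Efnb2*, chr8:8661243-8661492, minus strand: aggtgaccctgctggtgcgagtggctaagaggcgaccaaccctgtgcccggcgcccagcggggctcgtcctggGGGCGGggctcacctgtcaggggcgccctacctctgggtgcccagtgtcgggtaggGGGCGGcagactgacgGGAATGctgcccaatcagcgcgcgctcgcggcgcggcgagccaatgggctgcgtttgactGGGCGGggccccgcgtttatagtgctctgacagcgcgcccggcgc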

How the data were processed

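RNA from 6 reaggregates and 4 flat cultures of OP9 cells had been sequenced, and the authors deposited 1 RPM value per gene and library. They aligned reads with TopHat 1.2.0 to NCBI37/mm9, counted on Ensembl 58 genes in GeneProf, with multimapping reads split between them, and scaled each library to a common total. The deposited log2 fold changes and adjusted p-values of their DESeq comparison were not used, and 0 columns of values lacked a library. Between 46.5% and 65.7% of values up to 10 RPM were whole multiples of the estimated RPM of 1 read (within 2% per read, for up to 5 reads), so no count test was run.

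Genes above 0.5 RPM in at least 1 of the libraries compared were fitted on log2(RPM + 0.5) with limma 3.58.1 in R 4.3.3 (empirical Bayes with a mean-variance trend, no covariates), with Benjamini-Hochberg adjustment over all genes tested. The script was tested on simulated data. Whether the count of reads used strand is not given in the sources used here. Exon lengths and positions came from GENCODE M1 (Ensembl 65), on the same build, and promoters from RefSeq on GRCm38.p6. Python 3.11.15 and matplotlib 3.10.9 made the figures.

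Members and lists were chosen with earlier results of these data known. Named members are those called that reach 2 RPM in the mean of either group, the most abundant per exon length in each family, those called by IL-3 or source, and those untested or called below 2 RPM. Named partners are called genes of at least 5 RPM, at most 4 a list by size of change. Alternatives covered pseudocounts of 0.1 and 1, other filters and scalings, no trend, averaging or blocking libraries, each flat source, each IL-3 group and each library left out. Leaving out reaggregates 1 and 2, 3 and 4 or 5 and 6 together was added after the data were seen.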

Additional observations from a re-analysis of the deposited data

Results flagged for a closer look

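Gaps between 1 library and the rest of its group were examined for 25 members and 6 sums of markers, in reaggregates and in flat cultures, as 62 groups of values. Chance alone sets apart about 1 in 20 groups, and 3 groups were past the critical value, each with flat culture 3 above the other flat cultures. *Plxnb1* held 11.0 RPM there, beside 1.07 to 1.70 RPM in the other flat cultures. *Sema3g* held 2.75 RPM there, beside 0.121 to 0.358 RPM. *Sema6a* held 0.359 RPM there, about 3 reads, beside 0.115 to 0.121 RPM.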

How the results depend on the processing

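Of 649 values of named members under 26 alternatives, 540 kept their result, 73 lost a call, 19 gained one and 17 changed sign. A member not called in the main analysis and again not called, with its sign unchanged, counts among the 540. Of the called members, *Plxnb3*, *Plxna3*, *Robo1* and *Plxnd1* kept their calls least often, under 9, 15, 16 and 16 alternatives. The main analysis had 12 up-regulated, 1 down-regulated and 15 members past the adjusted p at any fold, beside 1239 genes up- and 1106 down-regulated. Averaging consecutive reaggregates gave 1 up-regulated member and 2 past the adjusted p, with 312 genes up- and 429 down-regulated; reaggregates with IL-3 alone gave 1 and 2 members, with 281 genes up and 368 down, and those without gave 2 and 3, with 354 up and 486 down. Against the de Bruijn flat cultures 9 members were down-regulated and 28 past the adjusted p, with 2581 genes up- and 1776 down-regulated, and against the others 661 genes were up-regulated. With equal numbers treated as a block, 2 members were down-regulated and 1891 genes up-regulated, but same-numbered reaggregates and flat cultures did not pair (r = −0.0408, −0.213, 0.0722 and 0.155). With 1 library left out, up-regulated members ranged from 7 to 14, down-regulated from 1 to 4, members past the adjusted p from 10 to 18, genes from 772 to 2122 up-regulated and from 815 to 1522 down-regulated, and members differing by source from 0 to 6; without a filter the last was 2. Without reaggregates 1 and 2, 9 members were past the adjusted p and 620 genes up-regulated; without 3 and 4, 2 members were down-regulated; without 5 and 6, 2 members were down-regulated and 1903 genes up-regulated. Signs turned for *Sema4g* (0.26) and *Efna5* (0.20) under the block and without reaggregates 5 and 6, and against the flat cultures without the de Bruijn label for *Slit2* (−0.75), *Epha4* (0.38), *Sema4g* (1.08), *Sema6d* (−0.65), *Sema7a* (1.04), *Efna2* (0.12) and *Efna5* (1.28). With 1 library left out, *Efna5* ranged from −0.93 to 0.32, *Sema4g* from −0.99 to 0.24 and *Sema6d* from −0.0377 to 0.77. *Efnb2* (−1.32 to −1.04) was called under all 26. So was *Sema6a* (1.39 to 2.98), which passed the filter through reaggregates alone and whose fold change followed the added constant. The cause was not tested.

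The comparison rests on 4 flat cultures of 2 source labels, and the label of cells in reaggregates is not known, so culture form and cell source are not fully separable. RNA levels do not give protein, and levels near 3 reads are uncertain.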
